A study of Mus musculus with 25 samples.

Results

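The early step of culture was followed here in mouse cortical astrocytes: day 7 in vitro set against day 2. The 3 day 7 libraries and the 3 day 2 libraries were taken by their labels from 25 RNA-seq libraries in 9 groups, and all 54429 genes of the expression table were considered, of which 13850 passed a filter of at least 1 RPKM in at least 2 libraries and were tested. The cells came from the cortex of C57BL/6J mice and had been purified by immunopanning, in which an antibody fixed to a dish (here to HepaCAM, a surface adhesion protein of astrocytes) holds the wanted cells while others are washed away. The 3 day 14 libraries of the same cells served for the later step. The other 16 libraries, from cells given inhibitors of EGFR or P53 or grown with or without the growth factor HBEGF, entered the fit for its estimate of spread. No allele or drug is named for the day groups. The sources used here do not give whether their medium held HBEGF, how old the animals were, or whether replicates came from separate animals or preparations. A p-value here therefore weighs a change against library-to-library spread alone, and that spread may be technical.

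Astrocytes are glia that take up transmitter glutamate and GABA, buffer potassium and water, store glycogen, export lipid to neurons and hold synapses in place. They arise from dividing radial glia and precursors, which carry nestin, vimentin and a tenascin-rich matrix, and as they mature they leave the cell cycle and switch on transporters, channels and apolipoproteins. Astrocytes grown in dishes have often kept immature or injury-like traits, and immunopanning with a defined medium was introduced to lessen that. Day 2 cells have just been through dissociation and plating, and day 7 cells have had several more days to settle.

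The cells carried astrocyte transcripts on both days. Of 10 astrocyte markers 9 were tested, and their summed level was 117.5 to 162.1 RPKM in day 7 libraries, against 73.8 to 101.9 RPKM in day 2 libraries. RPKM are reads scaled to the library total and to gene length, and here that length is the whole gene span with its introns, so levels are compared between days and not between genes. Hepacam, the panning target, stood at 14.9, 13.2 and 12.4 RPKM in day 7 replicates 1, 2 and 3, against 10.2, 5.71 and 7.20 RPKM in day 2 replicates 1, 2 and 3, the order used for every triplet here. The fitted difference was 0.77 ± 0.15 on the log2(RPKM + 1) scale (SE, limma adjusted p = 0.00302). Hepacam was not called in fits to the 9 day libraries alone or to the 6 libraries of days 7 and 2. Of the 9 astrocyte markers tested 6 were called higher in the fit to all libraries, and 0 in either smaller fit. Gfap, the filament gene most used to mark astrocytes, was low and variable, with 2.23, 0.674 and 4.17 RPKM on day 7 and 3.27, 1.43 and 1.96 RPKM on day 2 (adjusted p = 0.984). Sox9 and Fabp7, a glial transcription factor and a fatty acid binding protein of immature glia, did not pass the test either, with changes of 0.31 ± 0.16 and 0.06 ± 0.14 (adjusted p = 0.239 and 0.843). Oligodendrocyte precursor transcripts were present on both days. Their markers summed to 326.1 to 422.3 RPKM on day 7 and 320.4 to 403.0 RPKM on day 2. None of the 7 tested was called in either direction by limma (0 at an unadjusted p below 0.05 and 0 by voom on recovered reads). Olig1, a transcription factor of that lineage, made up a large part of the sum. It had 264, 273 and 192 RPKM on day 7 and 253, 209 and 189.6 RPKM on day 2. This sum cannot be set against the astrocyte sum, since levels are not compared between genes. Summed microglial markers were 1.51 to 2.86 RPKM on day 7 and 3.12 to 4.61 RPKM on day 2, with Tmem119 and C1qa listed at 0 (mt-Co2 and mt-Co3, which every cell uses, are listed at 0 too, so a 0 here is no evidence of absence), and the neuronal sum was 4.99 to 8.02 RPKM on day 7 and 5.84 to 6.70 RPKM on day 2. Pericyte markers summed to 3.40 to 12.5 RPKM on day 7 and 1.22 to 2.87 RPKM on day 2, mostly Acta2, and oligodendrocyte markers to 5.28 to 6.87 RPKM on day 7 and 2.53 to 4.30 RPKM on day 2. Endothelial, fibroblast, ependymal and erythrocyte sums stayed at or below 2.38 RPKM on both days. The part of these other cells in the results below was not tested, and in bulk RNA fewer cells of a type and less RNA per cell cannot be told apart.

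Day 7 replicate 3 stood apart from the other libraries. It had 4012358 reads counted to genes, against 8674649 and 4805481 in day 7 replicates 1 and 2, while day 2 replicates 1 to 3 had 9698571, 4595080 and 4328129. On the second principal component of the 9 day libraries it lay at -43.8, the other 8 lying between -15.0 and 20.4, and its array weight was the lowest of all 25 libraries (0.406 of a range to 2.56). Its proliferation transcripts were far below those of the other 2 day 7 libraries, as the values of the cell cycle genes show. Mitochondrial ribosomal RNA took 18.9 to 19.4% of reads on day 7 and 12.3 to 16.1% on day 2. Every value is a share of the library total.

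Day 7 cells differed from day 2 cells in 1899 of the 13850 tested genes (13.7%) at an adjusted p below 0.05. Of these, 571 were higher on day 7 (4.12% of genes tested) and 1328 were lower (9.59%). Each count of list members called below is to be read beside these shares. The median change over all tested genes was -0.05 in log2, and the 3 libraries of each day did not overlap for 1330 genes that were higher on day 7 (9.6%) and 2478 that were lower (17.9%). Among the called genes 90 were higher and 130 lower by at least 1 on the log2(RPKM + 1) scale, which understates folds of low genes. The share of calls that were higher moved with the scaling: it was 30.1% on the deposited scale, 42.5% with median-of-ratios scaling (640 higher, 867 lower) and 48% with mitochondrial genes left out of the total (713 higher, 772 lower). Without day 2 replicate 2 there were 324 higher and 614 lower calls, and without day 7 replicate 3 there were 393 and 775. Fits to the 9 day libraries or to the 6 libraries of days 7 and 2 made only 70 higher and 120 lower, or 55 and 54, calls.

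**Figure D1:**
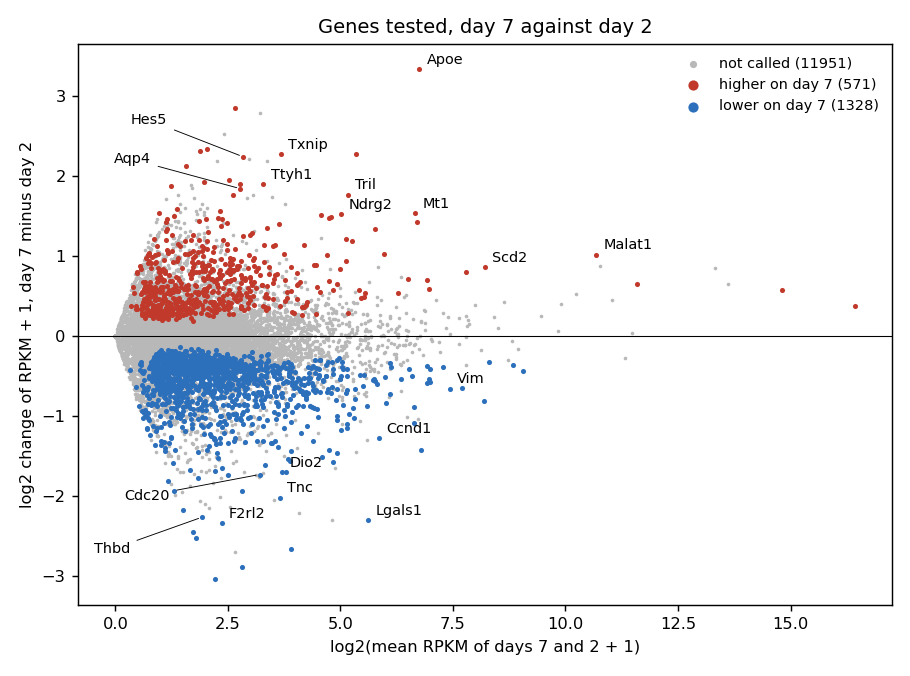
Change of each of 13850 tested genes on day 7 against day 2 (vertical axis, log2 of RPKM + 1) by its mean level over both days (horizontal axis, log2 of mean RPKM + 1), 1 point a gene. The 571 genes higher on day 7 are red, the 1328 lower ones blue and the 11951 others grey, and Apoe stands highest among the abundant genes while Lgals1, F2rl2 and Thbd lie among the lowest.

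Many genes of the mature astrocyte rose. Of 42 such genes in the list 35 were tested, and 21 rose and 3 fell (15 and 3 without day 2 replicate 2, 5 and 2 in the fit to the 9 day libraries), with a median change of 0.66, against 4.12% and 9.59% of all tested genes and a median of -0.05. The largest rise among all well expressed genes was that of Apoe (chr7:19696109-19699188, minus strand; gene positions are those of GENCODE M21 on GRCm38), which encodes the main lipid-carrying apolipoprotein that astrocytes secrete. Apoe had 196, 158 and 230.3 RPKM on day 7, against 29.3, 13.3 and 15.3 RPKM on day 2, a ratio of means of 10.1 (log2 change 3.33 ± 0.30, adjusted p = 1.91e-06). Every day 7 library was far above the highest day 2 library, and day 7 replicate 3 was the highest of the 6. Aqp4, the water channel of astrocyte endfeet, had 12.7, 7.398 and 8.70 RPKM on day 7, against 3.72, 1.01 and 1.55 RPKM on day 2 (1.84 ± 0.27, adjusted p = 0.000246). Ttyh1, a membrane protein of the tweety family, had 14.03, 12.5 and 16.7 RPKM, against 3.12, 2.57 and 3.73 RPKM (1.90 ± 0.21, adjusted p = 2.78e-05). The groups did not overlap for either gene. Tril, a leucine-rich repeat protein that works with Toll-like receptor 4 and sits in the list of synapse and engulfment genes, rose to much the same level in each library, with 58.8, 58.3 and 46.2 RPKM on day 7 and 17.1, 14.8 and 13.9 RPKM on day 2 (1.77 ± 0.11, adjusted p = 6.72e-08). Ndrg2, a cytoplasmic protein much used as an astrocyte marker, had 37.0, 32.4 and 72.8 RPKM on day 7, against 20.4, 10.8 and 14.7 RPKM on day 2 (1.52 ± 0.32, adjusted p = 0.00513), with day 7 replicate 3 far above the rest. The rise of the list was present in all 3 day 7 libraries: the median member lay 0.63, 0.50 and 0.80 above the day 2 mean, while the day 2 libraries lay at 0.23, -0.23 and -0.02.

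The 3 members that fell were Dio2, Slco1c1 and Cbs. Dio2 encodes the deiodinase with which astrocytes make active thyroid hormone, and it had 5.31, 3.82 and 6.12 RPKM on day 7, against 24, 14.5 and 18.3 RPKM on day 2 (-1.70 ± 0.26, adjusted p = 0.000338). Slco1c1 encodes a carrier of thyroid hormone, with a change of -0.96 ± 0.12 (adjusted p = 6.64e-05), and Cbs a step of homocysteine removal, with -0.68 ± 0.15 (adjusted p = 0.00691). So the list held risers and fallers, and both genes of thyroid hormone handling in it were lower on day 7. Slco1c1 and Cbs, like Slc1a2, Glul, Hes1, Hey1, Dll1, Rrm2, Nes, Tagln2, Txnrd1, Bcan and Adamts1, were picked from their lists after their values were seen.

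**Figure D2:**
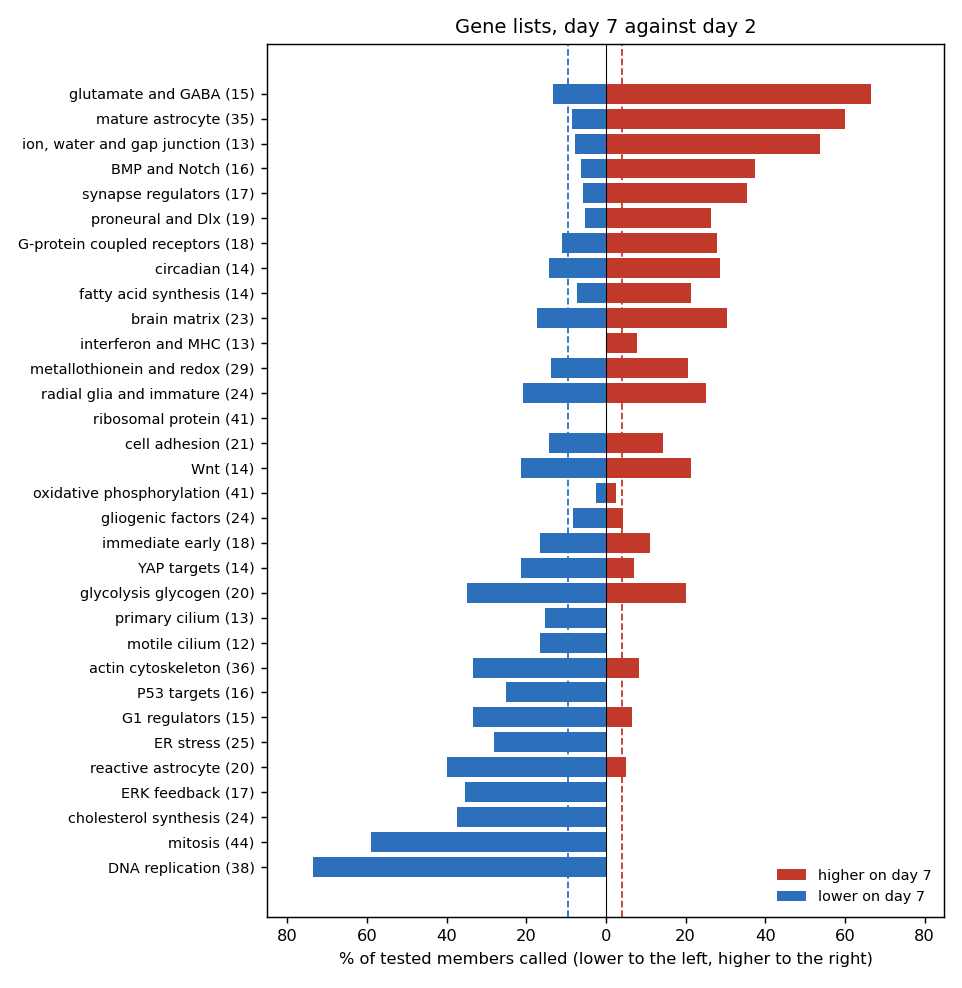
Share of each list's tested members that were called higher on day 7 (red, to the right) or lower (blue, to the left), in percent, for lists with at least 10 tested members; dashed lines mark the shares over all tested genes (4.12% and 9.59%). Glutamate and GABA genes and mature astrocyte genes reach furthest to the right, and DNA replication and mitosis genes furthest to the left.

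Transmitter uptake and its metabolism moved with the mature genes, some of which this list shares. Among 15 tested genes of glutamate and GABA handling 10 rose and 2 fell, with a median of 0.59. Slc6a11 encodes the GABA transporter GAT-3 and had 4.08, 4.28 and 4.31 RPKM on day 7, against 1.51, 1.20 and 1.45 RPKM on day 2 (1.13 ± 0.13, adjusted p = 2.78e-05). The 3 day 7 values lay within a narrow band well above all day 2 values. Slc1a3, which encodes the glutamate transporter GLAST, had 18.5, 16.4 and 22.5 RPKM, against 15.7, 9.82 and 10.3 RPKM (0.66 ± 0.14, adjusted p = 0.00457). Slc1a2, for the other main glutamate transporter GLT-1, rose by 0.81 ± 0.19 (adjusted p = 0.00907), a call that ended without day 2 replicate 2. Glul, for glutamine synthetase, rose by 0.69 ± 0.14 (adjusted p = 0.00323), and Slc38a3, a glutamine exporter, by 0.72 ± 0.11 (adjusted p = 0.000267). The AMPA receptor subunit Gria2 rose by 0.72 ± 0.10 (adjusted p = 0.000155). The aspartate transaminases Got1 and Got2 were the 2 that fell, and without day 7 replicate 3 neither was called, while 11 rose. In the fit to the 9 day libraries 4 rose and 0 fell.

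Water, ion and junction genes gave 7 higher and 1 lower of 13 tested, with a median of 0.42. Mlc1, a membrane partner of HepaCAM that is mutated in a leukodystrophy with cysts, had 11.1, 9.35 and 7.99 RPKM on day 7, against 4.71, 3.79 and 4.01 RPKM on day 2 (1.01 ± 0.12, adjusted p = 2.78e-05). Atp1b2, a beta subunit of the sodium pump, had 41.7, 41.5 and 59.1 RPKM, against 25.4, 14.3 and 20.9 RPKM (1.21 ± 0.20, adjusted p = 0.000889). The groups did not overlap for either gene, although day 2 replicate 1 was the nearest to day 7 in both. Slc12a2, the chloride importer NKCC1, was the member that fell, with 1.89, 2.07 and 1.13 RPKM on day 7, against 2.64, 3.26 and 3.86 RPKM on day 2 (-0.66 ± 0.12, adjusted p = 0.00151).

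Lipid export and fatty acid genes were called in few cases. Of 9 tested export genes 2 rose, 0 fell and 7 were not called, with a median of 0.09. Over all tested genes 4.12% rose and 9.59% fell, with a median of -0.05. The risers were Apoe, given above, and Abca1, the pump that loads lipid onto apolipoproteins. Abca1 had 5.33, 4.61 and 4.06 RPKM on day 7, against 1.74, 0.995 and 1.79 RPKM on day 2 (1.19 ± 0.15, adjusted p = 5.29e-05). Of 14 tested fatty acid genes 3 rose and 1 fell, with a median of 0.24. The 3 were the desaturase genes Scd2, Fads2 and Fads1, and the Fads1 call ended without any of 5 libraries. Scd2, the stearoyl desaturase of brain, had 436, 449.5 and 271 RPKM, against 207, 186 and 228 RPKM (0.86 ± 0.18, adjusted p = 0.00518), with day 7 replicate 3 the lowest of the 3 day 7 libraries. Fads2 changed by 0.76 ± 0.17 (adjusted p = 0.00557), Elovl1, a chain elongase, by -0.66 ± 0.14 (adjusted p = 0.00445), and without day 7 replicate 3 the number of fatty acid genes that rose was 7.

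In sterol synthesis every called gene was lower. Of 24 tested genes none was called higher and 9 were lower, with a median of -0.42. At a limma unadjusted p below 0.05, 15 were lower and 0 higher. For 16 the day 7 libraries all lay below the day 2 libraries. The shares over all tested genes were 9.59% called lower and 17.9% without overlap in that direction. Msmo1, a demethylation step of the pathway, had 5.77, 5.84 and 5.99 RPKM on day 7, against 12.4, 11 and 9.67 RPKM on day 2 (-0.80 ± 0.16, adjusted p = 0.00389). Fdps, which makes farnesyl diphosphate, had 0.868, 0.746 and 0.625 RPKM, against 1.74, 1.46 and 1.66 RPKM (-0.58 ± 0.12, adjusted p = 0.00383). Both were lower in every day 7 library than in any day 2 library. The median member lay -0.25, -0.31 and -0.76 from the day 2 mean in day 7 replicates 1, 2 and 3. Calls fell to 3 without day 7 replicate 3 or without day 2 replicate 2, to 5 without day 2 replicate 1 or 3, and to 5 and 4 under the other 2 scalings.

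Stress and energy genes showed a pair of related risers. Txnip (chr3:96557957-96561883, plus strand) encodes an arrestin-like protein that binds thioredoxin and curbs glucose uptake. It had 17.4, 16.7 and 26.1 RPKM on day 7, against 2.92, 2.55 and 4.65 RPKM on day 2, a ratio of 5.96 (2.27 ± 0.33, adjusted p = 0.000234). Its relative Arrdc4 had 3.47, 4.04 and 4.64 RPKM, against 1.03, 1.05 and 1.53 RPKM (1.20 ± 0.13, adjusted p = 1.91e-05). Both genes were higher in every day 7 library, and highest in replicate 3. They were 2 of the 6 that rose among 29 tested metallothionein, selenium and antioxidant genes, of which 4 fell (median 0.11; 10 rose under either other scaling). Mt1, a metal-binding metallothionein, had 145, 149.6 and 149 RPKM on day 7, against 56.3, 62.9 and 36.2 RPKM on day 2 (1.53 ± 0.27, adjusted p = 0.00140). Selenop, a secreted selenium carrier, had 5.59, 5.24 and 4.06 RPKM, against 1.53, 0.873 and 1.10 RPKM (1.46 ± 0.18, adjusted p = 3.85e-05), and Cryab, a small heat shock protein, 8.12, 5.68 and 5.58 RPKM, against 2.47, 1.19 and 1.04 RPKM (1.57 ± 0.27, adjusted p = 0.000919). The members that fell included Txnrd1, a thioredoxin reductase, with a change of -0.77 ± 0.14 (adjusted p = 0.00210); the number that fell was 2 without day 2 replicate 1 or day 7 replicate 2.

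Several enzymes of glycolysis fell, and a few genes of glycogen and lactate handling rose. Of 20 tested genes 4 rose and 7 fell, with a median of -0.26. Ldha, which turns pyruvate to lactate, had 20.3, 19.3 and 17.9 RPKM on day 7, against 34.4, 44.3 and 39.6 RPKM on day 2 (-0.998 ± 0.15, adjusted p = 0.000284). Pfkp, a phosphofructokinase, had 0.633, 0.473 and 1 RPKM, against 2.46, 2.20 and 1.80 RPKM (-0.90 ± 0.09, adjusted p = 1.65e-05), and Eno1, an enolase, changed by -0.76 ± 0.14 (adjusted p = 0.00192). Gapdh, Pgk1, Pkm and Pfkl were the other members that fell. Ppp1r3c, which targets a phosphatase to glycogen, was among the risers, with 40.7, 39.1 and 37.8 RPKM on day 7, against 15.7, 8.94 and 16.9 RPKM on day 2 (1.48 ± 0.25, adjusted p = 0.000842). The astrocyte aldolase Aldoc, the glycogen phosphorylase Pygb and the lactate dehydrogenase Ldhb were the others. Without day 2 replicate 2 the number that fell was 3.

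The promoter of Txnip is shown because a pair of carbohydrate response boxes, the element through which glucose acts on this gene, can be read in it. A pair of CACGNG boxes with 5 bases between them was searched on both strands of the 250 bases before the annotated start of each gene (RefSeq, GRCm38.p6), and was found in 14 of 27025 promoters (0.05%). The Txnip match begins 85 bases before the start and is in capitals; Arrdc4 had none in its window. The sequence is chr3:96557707-96557956, plus strand, 5′ to 3′.
Txnip: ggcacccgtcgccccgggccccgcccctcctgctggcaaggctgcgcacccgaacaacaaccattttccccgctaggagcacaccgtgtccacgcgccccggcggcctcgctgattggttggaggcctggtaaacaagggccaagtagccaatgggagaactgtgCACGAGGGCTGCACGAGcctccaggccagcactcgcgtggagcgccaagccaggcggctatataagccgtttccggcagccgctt

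Notch pathway genes rose in part. Of 16 tested BMP and Notch genes 6 rose and 1 fell, with a median of 0.22, against 4.12% and 9.59% of all tested genes. All of the risers belong to the Notch side. In the fit to the 9 day libraries 2 rose and 1 fell, and in the fit to 6 libraries 0 and 1. Hes5 (chr4:154960923-154962371, plus strand) is a repressor switched on by active Notch in neural progenitors and glia. It had 6.69, 9.20 and 16.5 RPKM on day 7, against 1.78, 0.601 and 1.92 RPKM on day 2, a ratio of 7.54 (2.24 ± 0.42, adjusted p = 0.00213). The lowest day 7 value was above the highest day 2 value, and replicate 3 of day 7 was the highest. The related repressors Hes1 and Hey1 rose by 0.54 ± 0.12 and 0.76 ± 0.16 (adjusted p = 0.00744 and 0.00389). Among ligands, Dll3 had 1.29, 1.17 and 2.12 RPKM on day 7, against 0.546, 0.401 and 0.372 RPKM on day 2 (0.80 ± 0.15, adjusted p = 0.00205), and Dll1 changed by 1.07 ± 0.21 (adjusted p = 0.00244). Jag1 was the ligand that fell, with 0.993, 1.02 and 0.574 RPKM on day 7, against 2.71, 2.65 and 2.69 RPKM on day 2 (-0.99 ± 0.12, adjusted p = 3.25e-05). Dtx4, a ubiquitin ligase of the pathway, rose by 0.53 ± 0.09 (adjusted p = 0.000616). The calls of Hes5 and Dll3 ended in the fits to the 9 and to the 6 libraries.

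Ligands of the Delta kind also stand in the list of proneural and progenitor genes, where 5 of 19 rose and 1 fell (median 0.01). The median member lay -0.30, -0.17 and 0.55 from the day 2 mean in day 7 replicates 1, 2 and 3, and without replicate 3 the median change was -0.25 with 4 higher and 2 lower (-0.51 by voom). Sox4, a transcription factor of young neural cells, had 11.5, 10.8 and 15.9 RPKM on day 7, against 5.10, 5.49 and 4.82 RPKM on day 2 (1.14 ± 0.19, adjusted p = 0.000786). The long noncoding RNA Miat had 5.51, 5.32 and 7.69 RPKM, against 1.24, 1.37 and 2.09 RPKM (1.48 ± 0.19, adjusted p = 8.57e-05). Cd24a, a surface protein of immature cells, was the member that fell, with 20.97, 24.1 and 21.4 RPKM on day 7, against 47.4, 31.5 and 46.9 RPKM on day 2 (-0.87 ± 0.12, adjusted p = 0.000189). Dcx, a microtubule protein of young neurons, had 0.250, 0.161 and 1.31 RPKM on day 7 and 0.306, 0.506 and 0.996 RPKM on day 2 (adjusted p = 0.882). Progenitor genes thus did not move as a block.

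The Hes5 promoter is shown for its matches to GTGGGAA, letters bound by RBPJ, the DNA-binding partner of Notch. They occur on either strand in 5.41% of all 27025 promoters and in 1 of the 11 BMP and Notch promoters at hand, that of Hes5. The same letters occur in 3 of 17 sterol promoters (17.65%), 2 of 32 replication promoters and 1 of 37 mitosis promoters. They are thus not particular to Notch genes. The Hes5 matches begin 226 and 83 bases before the start and are in capitals. The sequence is chr4:154960673-154960922, plus strand, 5′ to 3′.
Hes5: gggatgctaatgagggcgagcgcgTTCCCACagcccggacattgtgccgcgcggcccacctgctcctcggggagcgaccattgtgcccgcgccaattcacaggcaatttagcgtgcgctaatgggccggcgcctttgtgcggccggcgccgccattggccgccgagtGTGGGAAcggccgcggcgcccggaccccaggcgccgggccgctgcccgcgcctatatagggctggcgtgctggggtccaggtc

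Cell cycle transcripts were lower on day 7, and most of the calls depended on single libraries. Of 44 genes of spindle, chromosome segregation and cytokinesis none was called higher and 26 were lower, with a median of -1.07. All 44 had a limma unadjusted p below 0.05 in that direction, and for 43 the days did not overlap. The shares over all tested genes were 9.59% called lower and 17.9% without overlap in that direction. Of 38 tested genes of DNA replication and nucleotide supply 28 were lower and none higher (34 and 0 at an unadjusted p below 0.05), with a median of -0.59. Cdc20, the activator of the ligase that ends mitosis, had 5.31, 5.52 and 0.616 RPKM on day 7, against 10.3, 15.4 and 12.2 RPKM on day 2 (-1.73 ± 0.45, adjusted p = 0.0165). Mki67, the standard proliferation marker, had 35.0, 37.6 and 4.41 RPKM on day 7, against 43.2, 46.7 and 72.8 RPKM on day 2 (-1.46 ± 0.56), and did not pass the test (adjusted p = 0.0967). In both genes day 7 replicates 1 and 2 were below every day 2 library, and replicate 3 was far below them. Rrm2, the ribonucleotide reductase subunit of S phase, showed the same order, with 20.8, 22.8 and 6.08 RPKM on day 7, against 39.0, 46.7 and 39.6 RPKM on day 2 (-1.47 ± 0.33, adjusted p = 0.00688). Aurka, a mitotic kinase, had 1.33, 1.19 and 0.191 RPKM, against 2.28, 3.25 and 3.04 RPKM (-1.07 ± 0.24, adjusted p = 0.00752). Uhrf1 and Dnmt1, which copy DNA methylation onto new strands, changed by -0.88 ± 0.19 and -0.87 ± 0.15 (adjusted p = 0.00500 and 0.000888).

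Measured library by library, the median mitosis gene lay -0.54, -0.53 and -2.11 from the day 2 mean in day 7 replicates 1, 2 and 3, and -0.16, 0.05 and 0.11 in day 2 replicates. DNA replication genes lay at -0.41, -0.35 and -1.01 on day 7. Without day 7 replicate 3 the median change was -0.52 for mitosis and -0.38 for replication, and the calls were 2 of 44 and 8 of 38. Without day 2 replicate 2 the medians were -1.003 and -0.50 and the calls 2 and 7, and without day 2 replicate 3 the calls were 7 and 17. The other scalings left 18 mitosis genes called in each case and 18 and 16 replication genes, and the fit to the 9 day libraries left 0 of either list. Cdc20 was not called without day 7 replicate 3 or without day 2 replicate 2, where its change was -1.07 and -1.59.

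**Figure D3:**
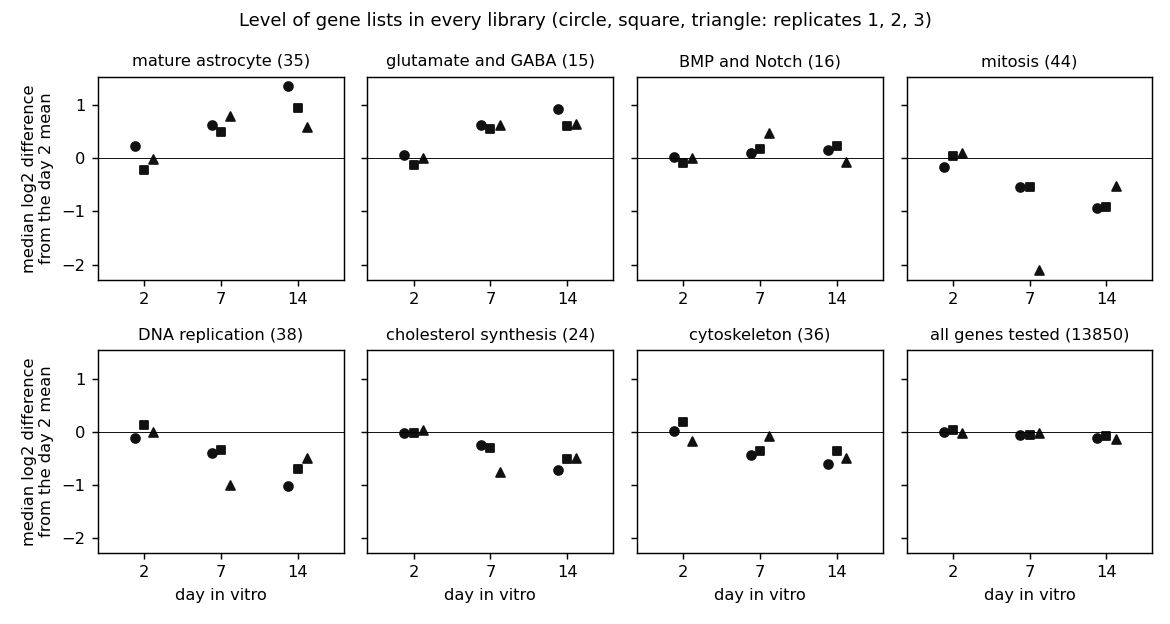
Median log2 difference of a gene group from its day 2 mean (vertical axis, RPKM + 1 scale) in each library of days 2, 7 and 14, 1 point a library, for 7 lists and for all tested genes. Mature astrocyte and transmitter genes lie above the day 2 level in all 3 day 7 libraries, and mitosis, replication and sterol genes lie below it, replicate 3 being the lowest of the day 7 libraries.

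Promoters of the 2 cell cycle lists are shown by 1 gene each, since most of their promoters at hand held CCAAT letters, which the lists did not use. The letters CCAAT, bound by the factor NF-Y, occurred on either strand in 75.7% of 37 mitosis promoters, 65.6% of 32 replication promoters and 34.5% of all 27025. The letters TTTGAA of the cell cycle genes homology region occurred in 29.7% of mitosis promoters and 16.3% of all. The letters GCGGGAA of E2F sites occurred in 21.9% of replication promoters, in none of the 37 mitosis promoters and in 3.84% of all. CCAAT was also found in 15 of 17 sterol promoters (88.2%), and GCGGGAA in 2 of the 17 (11.8%). Letters of the metal response element (TGCACNC or TGCGCNC) occurred in 35.1% of mitosis promoters, 37.5% of replication promoters and 21.3% of all. A share above that of all promoters was thus not particular to cell cycle elements. Such matches are letters only and show no binding. Capitals mark TTTGAA and CCAAT matches in Cdc20 (chr4:118437344-118437593, minus strand) and GCGGGAA and CCAAT matches in Uhrf1 (chr17:56303087-56303336, plus strand), both read 5′ to 3′ on the strand of the gene.
Cdc20: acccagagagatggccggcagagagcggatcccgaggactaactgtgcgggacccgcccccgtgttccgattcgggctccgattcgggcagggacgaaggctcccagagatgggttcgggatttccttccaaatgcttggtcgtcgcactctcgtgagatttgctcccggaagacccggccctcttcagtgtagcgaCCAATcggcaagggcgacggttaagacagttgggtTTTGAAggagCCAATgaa
Uhrf1: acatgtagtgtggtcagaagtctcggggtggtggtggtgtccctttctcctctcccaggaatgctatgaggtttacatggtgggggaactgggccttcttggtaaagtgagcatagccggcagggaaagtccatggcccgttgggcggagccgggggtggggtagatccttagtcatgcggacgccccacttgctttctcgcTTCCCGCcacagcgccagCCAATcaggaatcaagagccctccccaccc

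Entry into the cycle was lower in its cyclins. Ccnd1, the cyclin D that growth factors switch on, had 34.3, 33.1 and 30.5 RPKM on day 7, against 90.3, 89.1 and 64.9 RPKM on day 2 (-1.28 ± 0.27, adjusted p = 0.00469), and here day 7 replicate 3 was close to the other 2. Ccne1, which follows it, had 0.761, 1.11 and 0.496 RPKM, against 1.91, 2.92 and 1.74 RPKM (-0.83 ± 0.16, adjusted p = 0.00307). Cdkn1c, an imprinted inhibitor of cyclin kinases, rose, with 4.59, 4.99 and 3.31 RPKM on day 7, against 1.03, 1.37 and 0.511 RPKM on day 2 (1.44 ± 0.20, adjusted p = 0.000205). In the list of G1 regulators 1 of 15 rose and 5 fell (median -0.25, and -0.13 without day 7 replicate 3). The number that fell was 2 without day 2 replicate 2 or day 7 replicate 3, and 3 without day 2 replicate 1.

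The study's drugs act on EGFR and P53, and the genes of both pathways were read in the day groups. Egfr had 7.51, 7.56 and 4.88 RPKM on day 7 and 4.01, 3.94 and 6.32 RPKM on day 2, a change of 0.41 ± 0.16 that did not pass the test (adjusted p = 0.0931). Its ligand gene Hbegf had 2.29, 2.58 and 7.45 RPKM on day 7 and 12.9, 13.2 and 5.18 RPKM on day 2 (-1.20 ± 0.47, adjusted p = 0.101). Day 7 replicates 1 and 2 were below every day 2 library in Hbegf, while replicate 3 was not. None of the 3 tested genes of the EGF receptor family and its ligands was called by limma (1 higher and 1 lower at an unadjusted p below 0.05, 1 higher and 0 lower by voom), and without day 7 replicate 3 or without day 2 replicate 3 there was 1 call in each direction. Genes of ERK negative feedback and ETS output, which ERK signalling switches on, fell in 6 of 17 cases and rose in none (median -0.13; 7 and 0 at an unadjusted p below 0.05). Phlda1 had 4.74, 6.44 and 7.92 RPKM on day 7, against 19.7, 27.9 and 15.4 RPKM on day 2 (-1.56 ± 0.20, adjusted p = 7.83e-05), and Dusp4, a phosphatase of ERK, had 1.64, 0.975 and 2.32 RPKM, against 5.92, 4.70 and 3.61 RPKM (-1.13 ± 0.19, adjusted p = 0.000884). Ier3, an early response gene, changed by -1.31 ± 0.24 (adjusted p = 0.00173).

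P53 readouts were lower on day 7, in calls that ended when single libraries were left out. Cdkn1a, the cyclin kinase inhibitor p21 and the best known P53 target, had 17.6, 12.3 and 12.04 RPKM on day 7, against 34.6, 33.5 and 20.45 RPKM on day 2 (-1.01 ± 0.30, adjusted p = 0.0340). Mdm2, which degrades P53, had 5.69, 5.02 and 4.85 RPKM, against 7.24, 8.19 and 6.46 RPKM (-0.42 ± 0.11, adjusted p = 0.0166), and Trp53 itself 8.94, 8.51 and 9.76 RPKM, against 10.96, 14.4 and 13.0 RPKM (-0.45 ± 0.12, adjusted p = 0.0216). The days did not overlap for any of the 3. Of 16 tested P53 targets 4 were called lower and none higher (6 and 0 at an unadjusted p below 0.05; median -0.33). None of the 4 was called without day 7 replicate 3 or without day 2 replicate 2, 2 were called without day 2 replicate 1 or day 7 replicate 2, and the Trp53 call ended without day 2 replicate 2 or 3, without day 7 replicate 1 or 2, and with mitochondrial genes left out of the total. Cdkn1a was not called under either other scaling.

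Several genes tied to immature glia fell, while others of that list rose: of 24 tested radial glia genes 6 were higher and 5 lower (median -0.05, as over all genes), the risers including Hes5, Slc1a3 and Sox4. Lgals1, galectin-1, had 14.4, 11.9 and 18.6 RPKM on day 7, against 89.4, 107 and 47.0 RPKM on day 2, a day 2 to day 7 ratio of 5.42 (log2 change -2.30 ± 0.25, adjusted p = 2.24e-05). Tnc, tenascin C of the progenitor matrix, had 5.56, 4.22 and 2.33 RPKM, against 17.1, 25.3 and 15.1 RPKM (-2.03 ± 0.33, adjusted p = 0.000616). The highest day 7 library was below the lowest day 2 library in each. Vim, the vimentin filament, had 131, 116 and 154 RPKM on day 7, against 203, 239 and 192 RPKM on day 2 (-0.66 ± 0.12, adjusted p = 0.00187), and Nes, nestin, changed by -0.89 ± 0.22 (adjusted p = 0.0136; not called without day 7 replicate 3).

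Of 20 tested genes of reactive astrocytes 8 fell and 1 rose (median -0.22). The median was -0.46 without day 7 replicate 3 and -0.84 by voom, and that library's median member, at -0.11 from the day 2 mean, was level with day 2 replicate 3, at -0.11 too, while day 7 replicates 1 and 2 lay at -0.34 and -0.56. Clcf1, a cytokine of the interleukin-6 family, had 0.773, 0.585 and 4.34 RPKM on day 7, against 9.61, 7.50 and 5.12 RPKM on day 2 (-1.73 ± 0.37, adjusted p = 0.00553), with day 7 replicate 3 near the lowest day 2 library. Tm4sf1, a tetraspan membrane protein, had 0.190, 0.0762 and 0.137 RPKM, against 1.98, 1.89 and 0.988 RPKM (-1.19 ± 0.14, adjusted p = 3.66e-05). Cd44, the hyaluronan receptor, had 1.02, 0.694 and 0.854 RPKM, against 2.996, 2.56 and 1.71 RPKM (-0.87 ± 0.11, adjusted p = 8.02e-05). These genes lay lower in all 3 day 7 libraries. Cp, ceruloplasmin, was the member that rose, with 1.96, 1.66 and 0.900 RPKM on day 7, against 0.471, 0.326 and 0.306 RPKM on day 2 (0.85 ± 0.13, adjusted p = 0.000308). The number that fell stayed at 8 or 9 in every fit with a day 2 or day 7 library left out. It was 3 in the fit to the 9 day libraries and 0 in the fit to the 6 libraries of days 7 and 2.

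Cytoskeletal genes fell in 12 of 36 tested cases and rose in 3 (median -0.31). The median member lay -0.43, -0.37 and -0.08 from the day 2 mean in day 7 replicates 1, 2 and 3, and 0.01, 0.19 and -0.18 in day 2 replicates, so day 7 replicate 3 lay within the day 2 range. Tubb6, a beta tubulin, had 5.79, 4.41 and 6.03 RPKM on day 7, against 20.1, 25.4 and 15.1 RPKM on day 2 (-1.71 ± 0.20, adjusted p = 2.8e-05). Tpm4, a tropomyosin, had 8.43, 8.65 and 7.24 RPKM, against 14.9, 19.1 and 17.8 RPKM (-1.0 ± 0.13, adjusted p = 8.29e-05), and the actin-binding Tagln2 changed by -1.43 ± 0.27 (adjusted p = 0.00234). The risers were the smooth muscle genes Acta2, Tagln and Myl9: Acta2 had 3.86, 3.33 and 12.3 RPKM on day 7, against 1.17, 2.72 and 1.01 RPKM on day 2 (1.37 ± 0.35, adjusted p = 0.0143), of which replicate 3 was the highest. None of the 3 was called without day 7 replicate 3 or without day 2 replicate 3. Outside the lists, Map1b, a microtubule protein of growing processes, had 0.930, 1.05 and 2.77 RPKM on day 7, against 6.06, 7.22 and 6.89 RPKM on day 2 (-1.65 ± 0.20, adjusted p = 5.04e-05), and Gng3, a G protein subunit, 3.04, 3.68 and 5.16 RPKM, against 15.1, 12.3 and 14.7 RPKM (-1.62 ± 0.21, adjusted p = 7.21e-05).

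Matrix genes went in both directions. Of 23 tested genes of the brain matrix and its proteases 7 rose and 4 fell (median 0.08), against 4.12% and 9.59% of all tested genes. Vcan, versican, fell alongside tenascin C, with 0.985, 1.10 and 0.883 RPKM on day 7, against 2.19, 2.17 and 2.28 RPKM on day 2 (-0.69 ± 0.08, adjusted p = 2.02e-05), whereas the lectican Bcan, brevican, rose by 0.68 ± 0.13 (adjusted p = 0.00213). The protease inhibitor Timp3 had 2.07, 1.89 and 2.10 RPKM, against 0.479, 0.416 and 0.395 RPKM (1.08 ± 0.09, adjusted p = 1.11e-06). The proteases Mmp14 and Adamts1 fell, changing by -0.68 ± 0.12 and -1.32 ± 0.31 (adjusted p = 0.00157 and 0.00911). The number of matrix genes that rose was 4 without day 2 replicate 2. Of 7 tested collagen, laminin and fibronectin genes 2 fell and none rose: Fn1, fibronectin, changed by -0.82 ± 0.16 (adjusted p = 0.00283) and Fbn2, a fibrillin, by -0.57 ± 0.09 (adjusted p = 0.000786).

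F2rl2 and Thbd were among the deepest falls. F2rl2 (chr13:95696853-95702739, plus strand) encodes the protease-activated receptor PAR3 and had 0.725, 0.707 and 0.593 RPKM on day 7, against 6.59, 9.61 and 6.56 RPKM on day 2, a day 2 to day 7 ratio of 11.2 (-2.34 ± 0.17, adjusted p = 1.57e-07). Thbd (chr2:148404466-148408188, minus strand) encodes thrombomodulin, which binds thrombin at the cell surface, and had 0.434, 0.112 and 0.335 RPKM, against 4.85, 6.96 and 4.10 RPKM, a ratio of 18.1 (-2.27 ± 0.17, adjusted p = 1.57e-07). Every day 7 library was below 1 RPKM in both genes, and every day 2 library was above 4. F2rl1, for the related receptor PAR2, had 0.1196, 0.170 and 0.757 RPKM on day 7, against 2.64, 3.82 and 1.56 RPKM on day 2 (-1.43 ± 0.19, adjusted p = 0.000124), whereas F2r, for the main thrombin receptor PAR1, changed by only -0.30 ± 0.07 (adjusted p = 0.00972). These genes were set side by side after their values were seen. Among 18 tested G-protein coupled receptors of astrocytes 5 rose and 2 fell (median 0.18), against 4.12% and 9.59% of all tested genes. P2ry1, a receptor for ADP, had 6.50, 6.09 and 5.68 RPKM on day 7, against 3.07, 2.78 and 3.40 RPKM on day 2 (0.80 ± 0.11, adjusted p = 8.57e-05), and Adgrg1, an adhesion receptor, changed by 0.73 ± 0.12 (adjusted p = 0.000685). Without day 2 replicate 2 the number of receptors that rose was 3.

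Genes of synapses, contact and Wnt signalling changed singly. Of 17 tested synapse regulators and engulfment genes 6 rose and 1 fell (median 0.12). This count and those of adhesion and Wnt genes stand against 4.12% higher and 9.59% lower over all tested genes. Nlgn3, neuroligin 3, a cell contact protein of astrocytes and neurons, had 3.84, 4.37 and 4.20 RPKM on day 7, against 1.68, 1.31 and 1.76 RPKM on day 2 (0.99 ± 0.09, adjusted p = 1.73e-06), and Mfge8, a bridging protein of engulfment, changed by 0.86 ± 0.18 (adjusted p = 0.00513). Of 21 adhesion genes 3 rose and 3 fell (median 0.03), among them Itgb8, an integrin that releases active TGF-beta, with 4.82, 4.48 and 4.14 RPKM on day 7, against 1.97, 1.91 and 2.01 RPKM on day 2 (0.89 ± 0.10, adjusted p = 2.05e-05). Of 14 Wnt genes 3 rose and 3 fell (median -0.17, and -0.05 without day 2 replicate 2; 1 fell without day 2 replicate 1 or day 7 replicate 3). The ligand Wnt5a had 8.02, 7.87 and 3.83 RPKM on day 7, against 1.13, 1.99 and 1.93 RPKM on day 2 (1.46 ± 0.19, adjusted p = 6.87e-05). The secreted inhibitor Sfrp1 had 0.931, 0.726 and 0.647 RPKM, against 2.22, 2.56 and 2.57 RPKM (-0.97 ± 0.07, adjusted p = 1.44e-07). Receptor genes went both ways, Fzd9 changing by 0.88 and Fzd5 by -0.71 (adjusted p = 0.00096 and 0.0193). Lrrn1, a leucine-rich repeat membrane protein, had 9.62, 9.43 and 6.43 RPKM on day 7, against 1.44, 1.56 and 2.41 RPKM on day 2 (1.76 ± 0.20, adjusted p = 2.78e-05).

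None of 41 tested ribosomal protein genes was called (limma; 0 higher and 2 lower at an unadjusted p below 0.05, 0 by voom), with a median of -0.05, the same as over all genes (0.11 without day 2 replicate 2). Nuclear genes of oxidative phosphorylation gave 1 higher and 1 lower of 41 (median 0.05), and neither call held in the fits without day 2 replicate 1 or 2, without day 7 replicate 2 or 3. Endoplasmic reticulum chaperones fell in 7 of 25 cases and rose in none (median -0.22), with Hsp90b1 at 52.5, 53.2 and 47.1 RPKM on day 7, against 76.6, 74.3 and 69.3 RPKM on day 2 (-0.52 ± 0.10, adjusted p = 0.00302); only 2 were called without day 2 replicate 1 or 2, 3 without day 7 replicate 1 or 2, and 11 without day 2 replicate 3. Insulin-like growth factor genes gave 3 lower and 0 higher of 9 (median -0.33), among them the insulin receptor Insr, with 1.34, 1.51 and 1.77 RPKM on day 7, against 2.52, 2.35 and 2.49 RPKM on day 2 (-0.44 ± 0.05, adjusted p = 4.59e-05). Transcription factors of gliogenesis gave 1 higher and 2 lower of 24 (median -0.04). The riser was Sox8, with 54.6, 51.4 and 49.4 RPKM on day 7, against 21.5, 22.3 and 22.7 RPKM on day 2 (1.19 ± 0.20, adjusted p = 0.000706). All list counts given here stand against 4.12% higher and 9.59% lower over all tested genes. Immediate early genes gave 2 higher, Egr2 and Btg2, and 3 lower, Fosl2, Klf6 and Dusp1, of 18 (median 0.07).

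The circadian list gave 4 higher and 2 lower of 14 (median 0.10), with the repressors Bhlhe40 and Bhlhe41 higher by 0.89 ± 0.15 and 0.77 ± 0.16 (adjusted p = 0.00105 and 0.00440). Genes of the YAP and TAZ set gave 1 higher and 3 lower of 14 (median -0.28), and the coactivator Wwtr1 (TAZ) and its partner Tead1 were among the lower ones, at -0.38 ± 0.07 and -0.40 ± 0.07 (adjusted p = 0.00110 and 0.000782). Motile cilium genes gave 0 higher and 2 lower of 12, primary cilium genes 0 and 2 of 13, interferon and MHC genes 1 and 0 of 13, and the 8 tested protein genes of the mitochondrial genome 1 and 0. Most of those calls ended when a library was left out. Counts of these lists stand against 4.12% higher and 9.59% lower over all tested genes. Where a list had 0 calls in a direction, limma's unadjusted p was below 0.05 for at most 2 members in that direction, and voom on recovered reads called none of them except 1 higher motile cilium gene and the EGF family gene given above. B2m, the light chain of MHC class I, was the interferon list's call, at 0.46 ± 0.15 (adjusted p = 0.0445), and it ended without any of 5 libraries, day 2 replicate 2 or 3, day 7 replicate 1 or 2 or day 14 replicate 2.

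The step from day 2 to day 7 was set beside the step from day 7 to day 14. The later step had 7 higher and 12 lower calls of 13850 genes (0.0505% and 0.0866%). The 2 steps share the day 7 libraries, so the changes are given side by side, and the difference of the 2 steps was tested as early minus late. That difference was positive for 45 genes (0.325%) and negative for 31 (0.224%), 0.549% of genes together, and for 0 genes in the fit to the 9 day libraries, where 1036 had an unadjusted p below 0.05 (1650 in the fit to all libraries; voom called 75 and 38). Day 14 values run on the same scale: Apoe had 622, 448 and 232 RPKM on day 14, above its day 7 mean in every library though not by the test (1.06, adjusted p = 0.195). Mature astrocyte genes changed by a median of 0.66 in the early step and 0.25 in the late one, and mitosis genes by -1.07 and 0.25, the day 14 libraries lying -0.94, -0.91 and -0.52 from the day 2 mean. The late mitosis value turns on day 7 replicate 3, at -2.11, since the other day 7 libraries, at -0.54 and -0.53, lie above 2 of the 3 day 14 libraries and about level with the third. With single libraries left out there were 15 to 127 positive and 6 to 90 negative differences, and leaving out any library but day 2 replicates 1 and 3 moved at least 1 of the counts by over 1.5 times; without day 14 replicate 1 they were 127 and 90, and without day 7 replicate 2 they were 15 and 6.

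Some genes had their highest mean on day 7. Txnip had 20.8, 6.81 and 5.64 RPKM on day 14, so its early and late changes were 2.27 ± 0.33 and -0.99 (late adjusted p = 0.267), and their difference 3.26 (adjusted p = 0.0139). Arrdc4 had 2.06, 1.85 and 1.47 RPKM on day 14, with 1.20 ± 0.13 and -0.85 (late adjusted p = 0.0348), a difference of 2.05 (adjusted p = 0.000413). Hes5 had 7.13, 4.55 and 1.83 RPKM on day 14, with changes of 2.24 ± 0.42 and -1.14 (late adjusted p = 0.337) and a difference of 3.39 (adjusted p = 0.0438). For Txnip and Hes5 the call on the difference ended without day 7 replicate 3, whose value was the highest of all 9 in each gene, and for Hes5 also without any of 6 others (day 2 replicates 1 and 2, day 7 replicates 1 and 2, day 14 replicates 2 and 3). Tril and Nlgn3 rose early and changed less later, with differences of 1.21 and 1.28 (adjusted p = 0.00865 and 0.000867). That of Tril was not called without day 7 replicate 2. Tril had its highest mean on day 14, with 91.5, 80.6 and 69.9 RPKM, above every day 7 library (late change 0.56, adjusted p = 0.0569). Nlgn3 had 3.58, 3.46 and 2.66 RPKM on day 14, below every day 7 library (late change -0.28, adjusted p = 0.249).

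Other genes fell more in the early step than in the late one. F2rl2 had 0.661, 0.474 and 1.24 RPKM on day 14, with changes of -2.34 ± 0.17 early and 0.07 late, a difference of -2.41 (adjusted p = 0.000867). Thbd had 0.241, 0.102 and 0.178 RPKM on day 14, with -2.27 ± 0.17 and -0.13 and a difference of -2.13 (adjusted p = 0.00196). Lgals1 had 10.6, 14.3 and 12.8 RPKM on day 14, with -2.30 ± 0.25 and -0.22, a difference of -2.08 (adjusted p = 0.0393) whose call ended without any day 7 library, day 2 replicate 1 or 2, or day 14 replicate 2 or 3. Sfrp1 had 0.471, 0.449 and 0.529 RPKM on day 14, below every day 7 library, and Tm4sf1 0.448, 0.403 and 0.404 RPKM, above every day 7 library; their late changes were -0.25 and 0.32 (adjusted p = 0.173 and 0.428). Their differences were -0.72 and -1.51 (adjusted p = 0.00915 and 0.00901), neither of which was called without day 7 replicate 2.

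**Figure D4:**
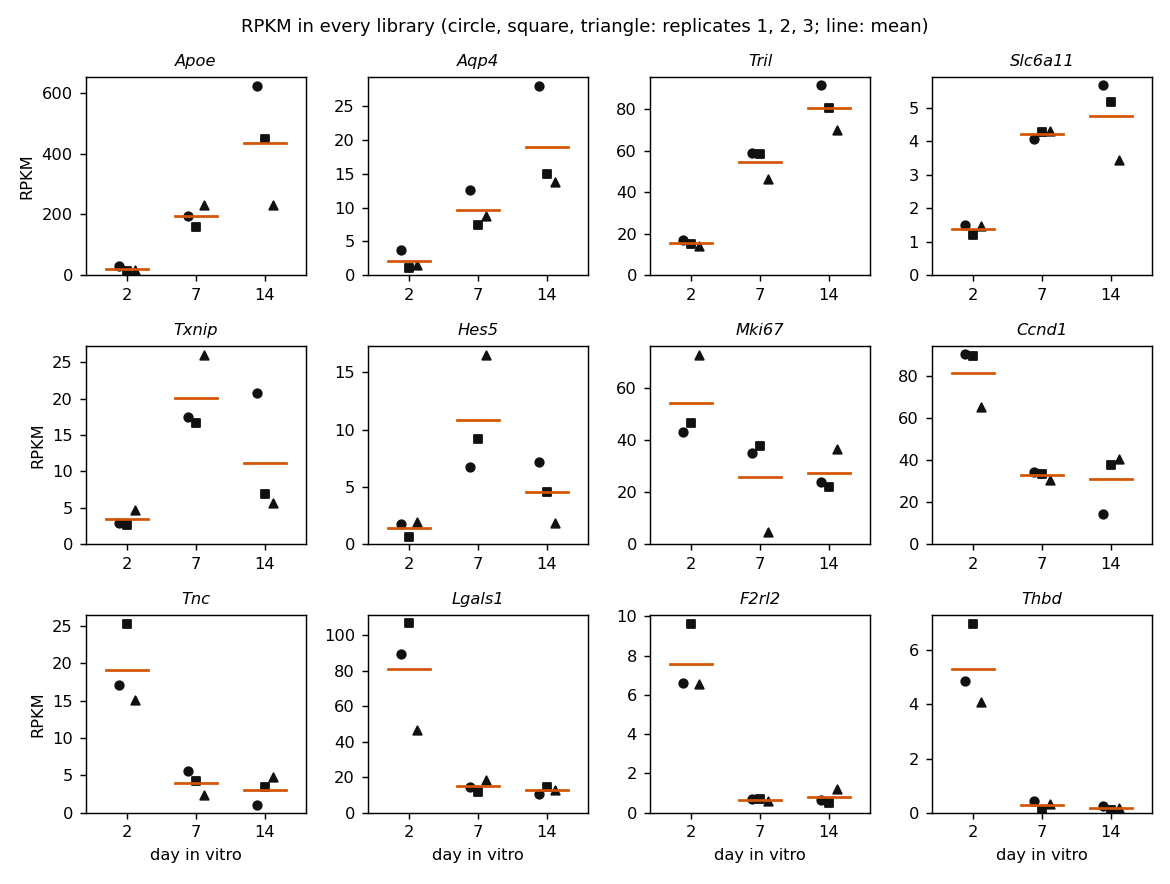
RPKM of 12 genes in every library (vertical axes, each panel with its own scale from 0) on days 2, 7 and 14 (horizontal axis); circles, squares and triangles are replicates 1, 2 and 3 and lines are means. Tril and Slc6a11 are steady among the day 7 libraries, Mki67 has a single low day 7 library, and F2rl2 and Thbd are near 0 on days 7 and 14.

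The protocadherin beta genes made up a gene family that rose together. The family was picked after its values were seen, so the counts describe it and no test rests on them. Protocadherins of this cluster are cell surface proteins with which neurons recognize their own processes, and each is encoded by a single exon in a row of close copies. Of 22 such genes 20 were tested, and 17 were called higher and none lower, with a median change of 0.82 and a range of 0.41 to 1.26. For 18 of them all day 7 libraries lay above all day 2 libraries. Of all tested genes 4.12% were called higher, and 9.6% lay without overlap in that direction. Their summed level was 35.1 to 43.4 RPKM in day 7 libraries, against 9.67 to 14.8 RPKM in day 2 libraries. Pcdhb16 had 3.33, 3.78 and 3.91 RPKM on day 7, against 0.947, 0.792 and 1.11 RPKM on day 2 (1.26 ± 0.17, adjusted p = 0.000129), and Pcdhb2, Pcdhb6 and Pcdhb10 were the members not called. The count stayed at 17 under both other scalings and was 12 without day 7 replicate 3. Because the genes are near copies, reads could be split between them, and the single genes are less certain than the sum. Every tested member also overlaps at least 3 other annotated genes, so the sum carries that limit too.

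**Figure D5:**
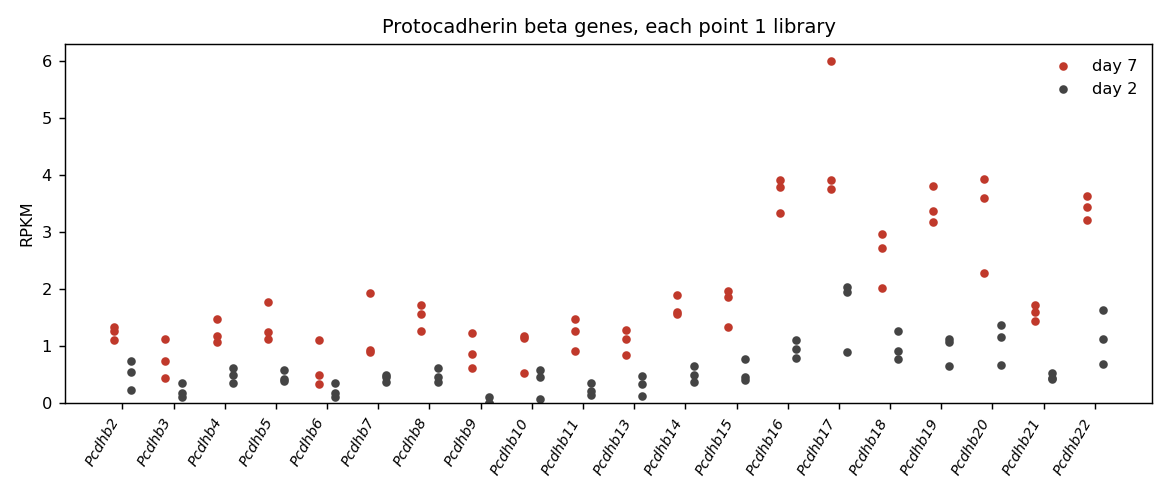
RPKM of 20 tested protocadherin beta genes (vertical axis; genes along the horizontal axis) in the 3 day 7 libraries (red, left) and the 3 day 2 libraries (grey, right), 1 point a library. In 18 of the 20 genes all red points lie above the grey ones.

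Several of the genes named above overlap another annotated gene: Aqp4, B2m, Bhlhe40, Ccnd1, Cdc20, Cdkn1c, Clcf1, Cp, Cryab, Dll1, Egfr, Elovl1, F2rl2, Fbn2, Fdps, Fn1, Gfap, Glul, Gng3, Hes5, Hsp90b1, Insr, Miat, Nlgn3, Olig1, P2ry1, Pcdhb16, Pfkp, Phlda1, Selenop, Slc1a2, Sox4, Sox8, Timp3, Tnc, Tpm4, Tril, Ttyh1, Txnip, Txnrd1, Vcan and Wnt5a. The sources used here do not say whether counting used strand, so reads of such a pair cannot be told apart.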

How the data were processed

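The deposited table holds RPKM computed by the authors for 54429 genes in 25 libraries (0 columns unused). Per the labels' protocols, total RNA was extracted with a miRNeasy kit, cDNA came from the Ovation V2 system and libraries from a NEBNext Ultra kit. The submitters' processing notes name GRCm38, STAR, HTSeq, edgeR and limma; the sources used here do not give versions, annotation release or strand setting. GENCODE M21 held 53643 of the names (98.6%) and lacked 786, and 26 symbols had become spreadsheet dates. Multiplied by the whole gene span, RPKM summed to between 998886 and 1002180 in each library, and this span was used as the length, and 99.27 to 99.39% of low values (up to 20 reads) came out as whole reads within 0.1. Libraries held 4012358 to 9698571 such reads, which limits precision for genes of few reads. No 2 libraries were identical (highest correlation 0.971).

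From these RPKM, genes with at least 1 RPKM in at least 2 libraries were tested with limma 3.58.1 (R 4.3.3) on log2(RPKM + 1), a scale that understates changes of low genes. The fit had 9 group means over 25 libraries (16 residual degrees of freedom), with the trend and robust options of empirical Bayes. Benjamini-Hochberg adjustment ran over all 13850 genes, and an adjusted p below 0.05 was a call; every adjusted p in the text is from this fit unless another is named, and values after ± are SE. Folds are ratios of mean RPKM. Tables were made with Python 3.11.15, pandas 2.3.3 and numpy 2.4.6. Simulated data had 200 of 13850 genes changed. There the day 7 against day 2 test recovered 83% of 2-fold and 89% of 4-fold changes, with 3.37% of calls false. The simulated noise was independent between genes and had the same spread in every library. No simulated library stood apart as day 7 replicate 3 did, so these rates need not hold for the real calls. A count test was not the main one because the deposited unit is RPKM; voom on the recovered reads was an alternative.

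The members and lists were chosen with earlier results of these data known, so no list is independent support. Named genes were up to 10 per direction with the largest change among called genes that averaged at least 5 RPKM in the higher day and did not overlap between days, the 4 lowest p-values of each list, up to 4 per direction of the early minus late difference, and Egfr, Hbegf, Trp53, Cdkn1a, Mdm2, Gfap, Mki67, Ccnd1, Hepacam, Sox9 and Fabp7; not all are printed, and some are not reported here. Alternatives were totals without mitochondrial genes, median-of-ratios scaling, a 0.1 pseudocount, a minimum of 5 RPKM or none, voom, array weights, a replicate block, fits to 9 or 6 libraries, and leaving out each library. Promoters are from RefSeq, GRCm38.p6.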

Additional observations from a re-analysis of the deposited data

Results flagged for a closer look

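The early step (day 7 against day 2) and the late step (day 14 against day 7) were compared by testing their difference in the same limma fit. The difference was positive for 45 genes and negative for 31. Among the genes with the largest differences, Hes5 stood at 3.39 (log2, adjusted p = 0.0438), Txnip at 3.26 (0.0139), Miat at 2.01 (0.0107) and Ttyh1 at 1.80 (0.0354). On the other side mt-Tc, a mitochondrial transfer RNA, stood at -2.62 (0.0344), F2rl2 at -2.41 (0.000867), Thbd at -2.13 (0.00196) and Lgals1 at -2.08 (0.0393). The mt-Tc values were 8.87, 9.60 and 15.3 RPKM on day 7, against 42.8, 20.1 and 42.7 RPKM on day 2. The differences of Hes5, Txnip, Miat, Ttyh1 and Lgals1 were not called without day 7 replicate 3, those of Hes5, Ttyh1, Lgals1 and mt-Tc were also lost without several of the other day libraries, those of Thbd and mt-Tc were not called by voom, and none of the 8 was called in the fit to the 9 day libraries. Both steps contain the day 7 libraries, so a day 7 library that stands apart enters both with opposite sign.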

How the results depend on the processing

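Alternatives moved counts of calls more than directions among the 130 named genes called in the main fit. None of these changed sign in an alternative that fitted it, and signs of uncalled named genes were not compared. Of the 130, 127 were still called with a pseudocount of 0.1, 125 with median-of-ratios scaling, 122 without mitochondrial genes in the total and 129 with voom. The fit to the 9 day libraries still called 47, and the fit to 6 called 27. Genes higher on day 7 numbered 295 with a filter of 5 RPKM, 70 in the fit to 9 libraries, 55 in the fit to 6, and 324 to 642 with a library left out. Genes lower numbered 530 with that filter, 867 with median-of-ratios scaling, 772 without mitochondrial genes, 120 and 54 in the smaller fits, and 614 to 1395 with a library left out. Positive early minus late differences numbered 25 with the filter of 5 RPKM, 75 with voom, 0 in the fit to 9 libraries, 103 with array weights and 15 to 127 with a library left out; negative ones numbered 49 with no filter, 7 with the filter of 5 RPKM, 0 in the fit to 9 libraries, 96 with array weights and 6 to 90. The smaller fits estimate spread from fewer libraries, and from the day libraries alone. The cause of these shifts, that of the smaller fits included, was not tested. With the replicate number as a block there were 413 higher and 869 lower calls and 8 positive and 2 negative differences. Same-numbered libraries correlated at -0.095 to 0.118 in their deviations, and differently numbered ones at -0.146 to 0.075. These correlations cannot settle whether the numbers pair the libraries, since each deviation was taken from a mean of 3 libraries. Depth limits genes of few reads.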

Other observations

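Other gene families were looked at after their values were seen, so their counts are descriptions. Replication-dependent histone genes, whose transcripts are made in S phase, gave 1 higher and 3 lower of 46 tested (median -0.32), and their summed level was 159 to 467 RPKM in day 7 libraries, against 384 to 555 RPKM in day 2 libraries. The share called lower is below the 9.59% of all tested genes, and 0 were lower without day 7 replicate 3, 1 with median-of-ratios scaling and 0 (with 2 higher) without mitochondrial genes in the total. Of 59 tested small nucleolar RNA genes 0 were called higher and 1 lower, and of 15 mitochondrial transfer RNA genes 0 were higher and 2 lower. Some imprinted genes, picked singly and not as a list, went in both directions: Nnat, Peg3 and Cdkn1c were higher on day 7 by 1.43, 1.14 and 1.44 in log2, and Mest and Igf2r were lower, at -1.16 and -0.38.

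Cd93, a surface protein gene beside Thbd on chromosome 2, changed by -1.53 (limma adjusted p = 0.000727). Slc6a6, the taurine transporter, had 0.272, 0.336 and 0.568 RPKM on day 7, against 2.44, 2.23 and 2.31 RPKM on day 2 (-1.26, adjusted p = 1.44e-07). Gpm6a, a membrane glycoprotein of neural cells, changed by 1.11 (adjusted p = 1.7e-07), and the nuclear noncoding RNA Malat1 by 1.01.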
